A study of Mus musculus with 18 samples.

Results

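The 10 genes described here encode the Fos proteins (*Fos*, *Fosb*, *Fosl1* and *Fosl2*), the Jun proteins (*Jun*, *Junb* and *Jund*), *Atf3*, and the zinc finger factors *Egr1* and *Egr2*. They were taken by gene name and make up 10 of the 56748 genes listed in the count data. The cells were RAW 264.7, a mouse macrophage cell line, and 18 RNA-seq libraries were made, 3 biological replicates for each of 6 conditions, all with WT in their column names. Control cells were left untreated. Cells of the TBHQ group received 5 µM tert-butylhydroquinone, a phenolic food antioxidant, for 4 h. Cells of the LPS group received 0.1 µg/mL lipopolysaccharide, a bacterial cell wall component, for 12 h, and cells of the PIC group received 20 µg/mL poly I:C, a double-stranded RNA analog, for 12 h. In the LPS+TBHQ and PIC+TBHQ groups, 4 h of TBHQ came before 12 h of the stimulus. The study's timeline places the untreated cells with the 12 h stimuli, while TBHQ alone was sampled after 4 h, so that its difference from the control cannot be told apart from one in time of harvest. The TBHQ stock was made in DMSO and the control is described as untreated, so that a part of the solvent in any difference made by TBHQ cannot be told apart either.

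Fos and Jun proteins pair through leucine zippers to form the dimeric transcription factor AP-1, which binds the TRE sequence, while Atf3 pairs with Jun proteins and other ATF/CREB relatives on CRE-like sequences. Egr proteins bind GC-rich sites through zinc fingers, and most of these genes are immediate early genes whose transcription follows MAP kinase signaling within minutes and then falls again. In macrophages, AP-1 acts beside NF-κB at inflammatory genes downstream of Toll-like receptors, and Atf3 is known as a feedback repressor of cytokine genes such as *Il6* and *Il12b*.

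Libraries held between 14423390 and 18851626 counted fragments. Levels are given as the authors' FPKM. These are counts over gene length and total count, times a factor per library that followed the condition (0.943 to 0.951 in control and 1.11 to 1.12 in PIC libraries) and whose product with the TMM factor of the library was 1.00 to 1.02. Differences are given as log2 fold changes (log2FC) ± standard error from edgeR's quasi-likelihood test on the counts, with n = 3 libraries per condition throughout. A gene was called where its false discovery rate (FDR, Benjamini-Hochberg over the 13691 genes tested) was below 0.05. All 10 genes passed the filter on low counts. For *Fosb*, with 3 to 27 counts per library, this came only through the LPS, PIC and TBHQ groups, so that its calls in those groups are a description, and counts of members below include it. In bulk RNA, fewer cells that express a gene and less of its RNA per cell cannot be told apart. Where a call for 1 of the 10 genes depended on a single library or setting, that is said beside it, with the range of FDR over all alternatives run for that comparison. One alternative, scaling by total count alone, moved all genes together. The median log2FC of the 13691 genes, near 0 with TMM and RLE scaling, went with it to −0.092 in LPS, −0.23 in PIC, −0.071 in LPS+TBHQ and −0.15 in PIC+TBHQ against control, 0.027 and 0.078 for TBHQ within LPS and PIC, −0.14 in PIC against LPS, −0.079 in the same comparison after TBHQ and 0.053 in the difference between the TBHQ effects. Relative to these medians, the 100 values of the 10 genes differed between total count and TMM scaling by at most 0.0029. A change of scaling moves every gene by nearly the same amount, so this agreement was fixed in advance and cannot tell which scaling is right. The 7 calls that total count made and the 9 that it ended depend on the choice of scaling, which was not tested. Wherever such a call is listed below, it has that limit. The 8 macrophage markers examined (*Adgre1*, *Cd68*, *Csf1r*, *Itgam*, *Lyz2*, *Cd14*, *Spi1* and *Ptprc*) were above 3 counts in 18 of 18 libraries, with summed FPKM of 5714 to 6713. Of 12 markers of other cell types, *Krt8*, *Krt18*, *Cd3e* and *Ly6g* had 0 counts in all libraries, *Epcam* and *Ms4a1* at most 1, and *Dcn*, a fibroblast gene, had 0 in control and TBHQ libraries, 1 to 9 with LPS, 2 to 9 with PIC and 0 to 3 in the pre-treated, stimulated libraries. The sum of the 12 stayed between 0.34 and 6.36 FPKM. Most of that sum was *S100a8*, a calcium-binding protein gene of myeloid cells, with 7 to 10 counts in control and 48 to 67 in PIC libraries. *S100a8* rose after the stimuli (29 to 37 counts in LPS libraries), beside the rises described below, and any part of it in them was not tested.

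**Figure D1:**
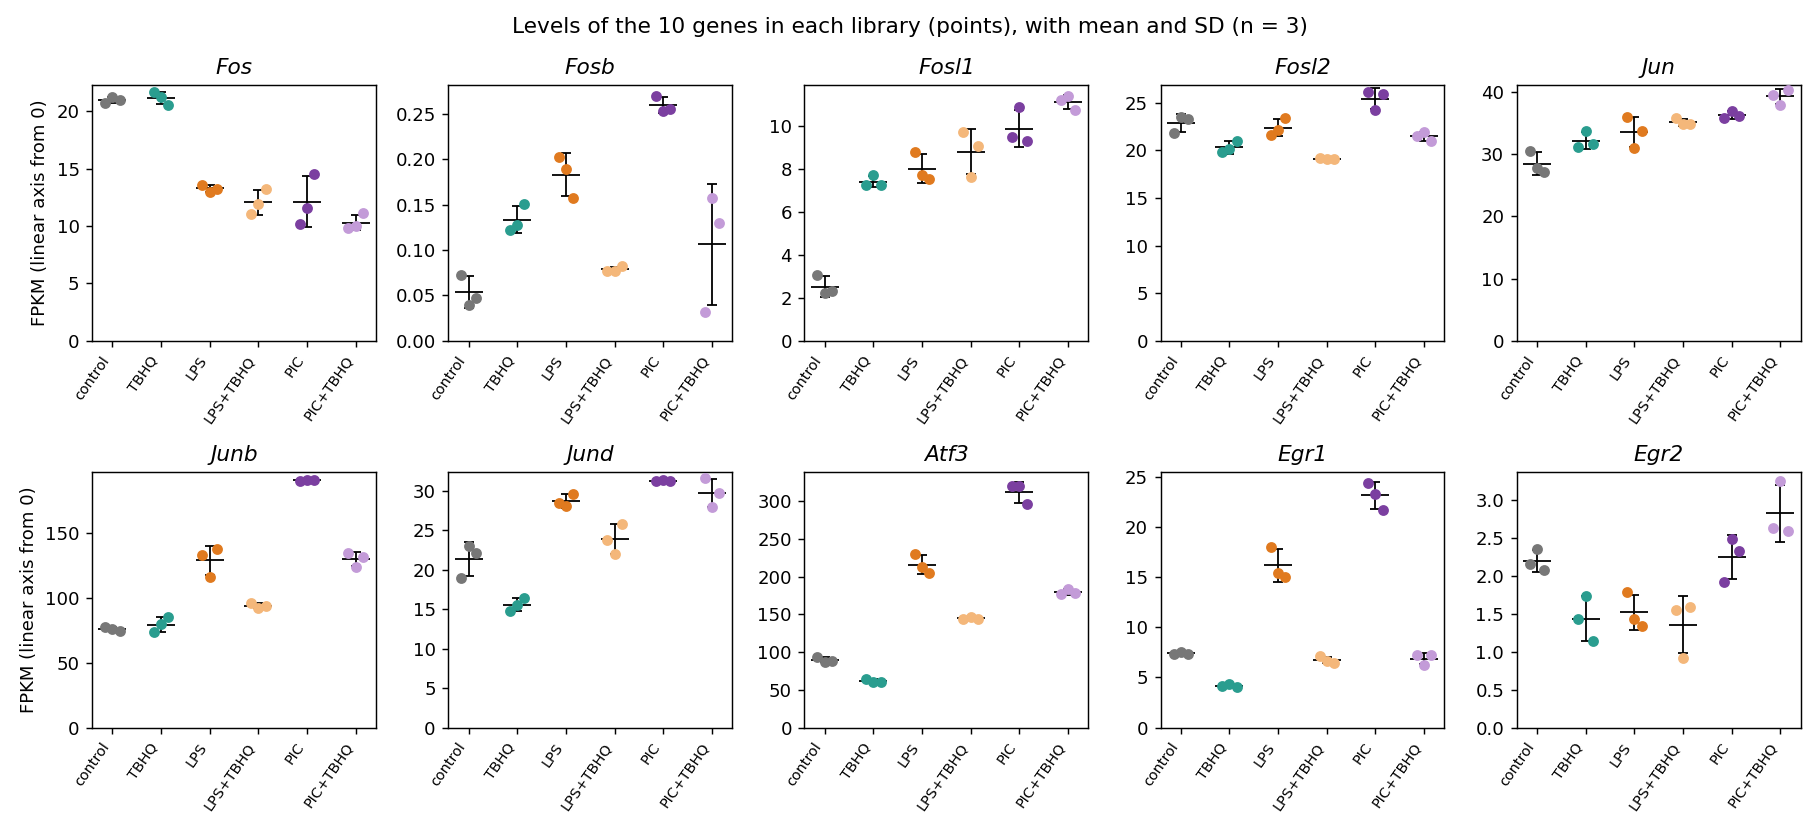
FPKM of each gene (linear vertical axes from 0) in the 18 libraries, grouped by condition on the horizontal axes, with points for libraries and bars for mean and SD (n = 3). *Egr1* stood at 15.1 to 24.4 FPKM after a stimulus alone and at 6.21 to 7.22 FPKM after a stimulus that followed TBHQ, while *Fosl1* lay above the 3 controls in the other 15 libraries and *Fos* fell after both stimuli.

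*Egr1* (ENSMUSG00000038418, chromosome 18, 34992876 to 34998037, plus strand in the authors' annotation) encodes a zinc finger activator of growth factor and tissue factor genes. The labels write the genome build as GRCm38/mm39, and none of the 10 gene starts given here was that of GENCODE M21 on GRCm38. A match to the other build could not be tested. Its level was 7.31, 7.53 and 7.35 FPKM in the control libraries (replicates 1 to 3) and 4.17, 4.32 and 4.00 FPKM after TBHQ. LPS brought it to 18.1, 15.4 and 15.1 FPKM and PIC to 24.4, 23.3 and 21.7 FPKM. After TBHQ pre-treatment it was 7.11, 6.66 and 6.47 FPKM with LPS and 7.22, 6.21 and 7.21 FPKM with PIC. All 6 libraries with a stimulus alone lay above the others, and all 6 pre-treated and stimulated libraries lay below the 3 controls yet above the 3 TBHQ libraries. *Egr1* rose 2.17-fold with LPS (log2FC 1.12 ± 0.067, FDR 1.56e-16) and 3.09-fold with PIC (log2FC 1.63 ± 0.065, FDR 6.53e-22). TBHQ alone lowered it 1.78-fold (log2FC −0.83 ± 0.077, FDR 1.15e-10). Pre-treatment lowered it 2.4-fold within LPS (log2FC −1.26 ± 0.067, FDR 3.45e-17) and 3.33-fold within PIC (log2FC −1.74 ± 0.066, FDR 4.23e-21).

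The stimulated, pre-treated cells were not called against the control for *Egr1*, with LPS (log2FC −0.14, 95% interval −0.29 to 0.003, FDR 0.108) or with PIC (log2FC −0.11, 95% interval −0.25 to 0.04, FDR 0.222). Both intervals still hold a small decrease. Total count made calls of both (log2FC −0.21, FDR 0.0175 with LPS and −0.26, FDR 0.00278 with PIC, ranges 0.0175 to 0.284 and 0.00278 to 0.683). Relative to the median of all genes the values were −0.14 and −0.11 with either scaling, which a change of scaling leaves nearly unchanged for any gene. Whether *Egr1* is called below the control thus depends on the choice of scaling, which was not tested. PIC gave more *Egr1* than LPS in cells without TBHQ (log2FC 0.51 ± 0.061, FDR 3.11e-08), while after TBHQ no difference between the stimuli was called (log2FC 0.035, 95% interval −0.11 to 0.18, FDR 0.802). The test of the difference itself, the effect of TBHQ within PIC minus that within LPS, gave −0.47 ± 0.095 (FDR 0.00288), so that the decrease was larger within PIC. It was called in all 21 alternatives run at the same threshold (FDR 2.51e-05 to 0.0281). From low to high the order of levels was TBHQ, LPS+TBHQ, PIC+TBHQ, control, LPS and PIC, and only LPS+TBHQ and PIC+TBHQ overlapped in their libraries.

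*Egr2* (ENSMUSG00000037868, chromosome 10, 67371305 to 67378018, plus strand), a relative of *Egr1* linked to macrophage differentiation, followed another pattern at a level near 2 FPKM. It had 112, 130 and 119 counts in control libraries, 83, 96 and 66 after TBHQ and 86, 70 and 65 after LPS. Counts were 89, 117 and 134 after PIC, 88, 52 and 95 in LPS+TBHQ and 137, 157 and 141 in PIC+TBHQ. The lowest library was LPS+TBHQ replicate 2 and the highest PIC+TBHQ replicate 2. *Egr2* fell with TBHQ (log2FC −0.61 ± 0.17, FDR 0.00609), with LPS (log2FC −0.54 ± 0.17, FDR 0.011) and with LPS+TBHQ (log2FC −0.70 ± 0.17, FDR 0.00114), but PIC gave no call (log2FC 0.02, 95% interval −0.31 to 0.35, FDR 0.928). The call for TBHQ was lost without TBHQ replicate 3 (log2FC −0.47, FDR 0.0617) and that for LPS without LPS replicate 3 (log2FC −0.44, FDR 0.066). FDR over the alternatives was 0.000934 to 0.0617 for TBHQ and 0.00301 to 0.066 for LPS.

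The clearest difference for *Egr2* lay between the stimuli after TBHQ, where it was 2.08-fold higher with PIC (log2FC 1.05 ± 0.17, FDR 9.06e-06). Without TBHQ the PIC cells were also higher than the LPS cells (log2FC 0.56 ± 0.18, FDR 0.0163), a call that ended without LPS replicate 2 (FDR 0.0553), LPS replicate 3 (FDR 0.0803) or PIC replicate 2 (FDR 0.0729), and with scaling by total count (FDR 0.0533, range 0.00533 to 0.0803). Neither LPS+TBHQ against LPS (log2FC −0.16, 95% interval −0.54 to 0.22, FDR 0.601) nor PIC+TBHQ against PIC (log2FC 0.34, 95% interval 0.0097 to 0.66, FDR 0.113) was called. Total count made a call of the latter (log2FC 0.41, FDR 0.0471, range 0.0471 to 0.401) by the shift of all genes, relative to which the value was 0.33 with either scaling. PIC+TBHQ against control missed the threshold (log2FC 0.36, 95% interval 0.032 to 0.68, FDR 0.0594) and passed it with a fit on those 2 groups alone (FDR 0.0246) or with no filter on low counts (FDR 0.0492, range 0.0246 to 0.275). The difference between the effects of TBHQ within PIC and LPS was not called (log2FC 0.50, 95% interval −0.0015 to 1.00, FDR 0.353). The order of levels was LPS+TBHQ, TBHQ, LPS, control, PIC and PIC+TBHQ. The lowest 3 conditions overlapped one another, and so did control and PIC.

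*Atf3* (ENSMUSG00000026628, chromosome 1, 190902493 to 190950236, minus strand), whose protein represses many genes of inflammation, had the highest level of the 10 genes in each stimulated group. The control libraries held 93.5, 87.2 and 88.8 FPKM and the TBHQ libraries 64.6, 60.0 and 61.0 FPKM. With LPS the level was 230, 213 and 205 FPKM, and with PIC it was 320, 320 and 296 FPKM. Pre-treated cells held 144, 147 and 144 FPKM with LPS and 177, 184 and 178 FPKM with PIC. No 2 conditions overlapped in any library, and the order was TBHQ, control, LPS+TBHQ, PIC+TBHQ, LPS and PIC. LPS raised *Atf3* 2.39-fold (log2FC 1.26 ± 0.041, FDR 2.92e-24) and PIC 3.43-fold (log2FC 1.78 ± 0.041, FDR 3.46e-29). TBHQ alone lowered it 1.46-fold (log2FC −0.54 ± 0.042, FDR 1.74e-12).

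TBHQ pre-treatment lowered *Atf3* within LPS (log2FC −0.58 ± 0.040, FDR 4.06e-14) and within PIC (log2FC −0.79 ± 0.039, FDR 7.51e-18). Unlike *Egr1*, it stayed above the control after pre-treatment with LPS (log2FC 0.68 ± 0.041, FDR 2.74e-16) and PIC (log2FC 0.99 ± 0.041, FDR 2.40e-21), although a test of *Atf3* against *Egr1* was not made. The effect within PIC minus that within LPS was −0.21 ± 0.056 (FDR 0.0423), a larger decrease with PIC. That difference was a narrow call. It ended, at FDR 0.0597 to 0.117, when any of 8 libraries was left out (LPS replicate 3, PIC replicates 1 and 2, LPS+TBHQ replicates 1 to 3, PIC+TBHQ replicates 1 and 3), and also with scaling by total count (FDR 0.11) or with limma on log2 FPKM (FDR 0.0924 with 1 added and 0.106 with 0.1 added). Over the 21 alternatives run FDR was 0.002525 to 0.117. PIC exceeded LPS for *Atf3* without TBHQ (log2FC 0.52 ± 0.039, FDR 4.80e-13) and after it (log2FC 0.31 ± 0.040, FDR 1.24e-07). A short RNA gene, *7SK*, lies over 108 bases of the gene span of *Atf3*, introns included, on the other strand, but had at most 6 counts in a library.

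*Junb* (ENSMUSG00000052837, chromosome 8, 85701113 to 85705347, minus strand) was the most abundant AP-1 gene in each of the 6 conditions. Its protein binds TRE sites but activates many of them less strongly than c-Jun. Control libraries held 77.5, 75.8 and 74.7 FPKM and TBHQ libraries 73.4, 80.0 and 85.2 FPKM, with overlap. LPS libraries held 133, 116 and 138 FPKM and LPS+TBHQ libraries 95.9, 92.3 and 94.0 FPKM. PIC libraries, at 190, 191 and 192 FPKM, were close together, and PIC+TBHQ libraries held 135, 124 and 132 FPKM. The PIC+TBHQ level thus overlapped that of LPS alone, and every other pair of neighbours apart from control and TBHQ was separate.

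*Junb* rose 1.69-fold with LPS (log2FC 0.76 ± 0.048, FDR 8.97e-16) and 2.48-fold with PIC (log2FC 1.31 ± 0.048, FDR 4.03e-23). TBHQ alone gave no call (log2FC 0.063, 95% interval −0.035 to 0.16, FDR 0.365). Before a stimulus, TBHQ lowered it within LPS (log2FC −0.46 ± 0.047, FDR 1.19e-09) and within PIC (log2FC −0.54 ± 0.046, FDR 1.07e-11), and the difference between these 2 effects was not called (log2FC −0.083, 95% interval −0.22 to 0.051, FDR 0.629). Pre-treated cells stayed above the control with LPS (log2FC 0.30 ± 0.048, FDR 3.23e-06) and PIC (log2FC 0.77 ± 0.048, FDR 4.17e-16). *Junb* was higher with PIC than with LPS both without TBHQ (log2FC 0.55 ± 0.047, FDR 9.23e-12) and after it (log2FC 0.47 ± 0.047, FDR 7.46e-10). The gene span of *Junb*, introns included, shares 351 bases with that of *Prdx2* on the opposite strand, a gene with 2513 to 3201 counts per library. Libraries were strand-specific, but whether the counting used strand is not given in the sources used here.

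*Jund* (ENSMUSG00000071076, chromosome 8, 71151599 to 71153265, plus strand), usually described as a steadily expressed Jun gene that restrains growth, had 484, 625 and 622 counts in control libraries and 419, 425 and 467 after TBHQ. It had 674, 672 and 707 counts after LPS and 663, 610 and 756 in LPS+TBHQ. With PIC it had 711, 728 and 881 counts, and in PIC+TBHQ 809, 662 and 794. Control replicate 1 was the lowest of the controls but in FPKM (18.9) still above the TBHQ libraries (at most 16.4). *Jund* fell with TBHQ (log2FC −0.46 ± 0.072, FDR 6.10e-06) and rose with LPS (log2FC 0.42 ± 0.069, FDR 3.38e-06) and PIC (log2FC 0.53 ± 0.068, FDR 1.86e-08). TBHQ before LPS lowered it (log2FC −0.27 ± 0.067, FDR 0.00289) and brought it to a level not called against the control (log2FC 0.15, 95% interval 0.013 to 0.29, FDR 0.0711), which became a call without control replicate 2 (log2FC 0.21, FDR 0.0266), without LPS+TBHQ replicate 2 (log2FC 0.21, FDR 0.0245) or with the filter at a mean of 50 counts (FDR 0.0373, range 0.0245 to 0.441).

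Within PIC, *Jund* gave no call for TBHQ (log2FC −0.061, 95% interval −0.20 to 0.073, FDR 0.527), and PIC+TBHQ stayed above the control (log2FC 0.47 ± 0.068, FDR 2.87e-07). The difference between both TBHQ effects on *Jund* was not called either (log2FC 0.21, 95% interval 0.014 to 0.40, FDR 0.309), so an effect particular to LPS is not shown. *Jund* was higher with PIC than with LPS after TBHQ (log2FC 0.32 ± 0.067, FDR 0.000415), with no call without it (log2FC 0.11, 95% interval −0.021 to 0.25, FDR 0.22). The order was TBHQ, control, LPS+TBHQ, LPS, PIC+TBHQ and PIC. Control overlapped LPS+TBHQ, and PIC+TBHQ overlapped LPS and PIC. The gene span of *Jund* shares 919 bases with that of *Gm11175* on the other strand, which had 0 counts in all libraries.

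*Jun* (ENSMUSG00000052684, chromosome 4, 94937271 to 94940459, minus strand), the gene of c-Jun, rose at most 1.37-fold against the control. Its level was 30.5, 27.8 and 27.0 FPKM in control and 31.1, 33.7 and 31.6 FPKM in TBHQ libraries. It was 35.9, 31.0 and 33.6 FPKM with LPS, 35.7, 36.9 and 36.0 FPKM with PIC, 35.7, 34.8 and 34.8 FPKM in LPS+TBHQ and 39.5, 37.9 and 40.2 FPKM in PIC+TBHQ. All 15 treated libraries were above the 3 controls. *Jun* rose 1.17-fold with LPS (log2FC 0.23 ± 0.050, FDR 0.000197) and 1.26-fold with PIC (log2FC 0.33 ± 0.049, FDR 3.59e-07), with LPS+TBHQ (log2FC 0.29 ± 0.049, FDR 5.35e-06) and most with PIC+TBHQ (log2FC 0.46 ± 0.049, FDR 5.06e-10). The rise with TBHQ (log2FC 0.17 ± 0.049, FDR 0.00665) was not called without control replicate 3 (log2FC 0.14, FDR 0.0642) or without TBHQ replicate 2 (log2FC 0.14, FDR 0.0648, range 0.00131 to 0.0648).

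TBHQ before LPS gave no call for *Jun* (log2FC 0.064, 95% interval −0.035 to 0.16, FDR 0.39). Before PIC it gave a small increase at the edge of the threshold (log2FC 0.13 ± 0.048, FDR 0.0456). That call ended without any one of 5 libraries, PIC replicates 1 to 3 and PIC+TBHQ replicates 1 and 3 (FDR 0.0906 to 0.188), with DESeq2 (FDR 0.104), with RLE scaling (FDR 0.0833), with both other filters on low counts (FDR 0.067 and 0.0764) and with limma (FDR 0.109 and 0.111), in a range of 0.00131 to 0.188. *Jun* was higher in PIC+TBHQ than in LPS+TBHQ (log2FC 0.16 ± 0.048, FDR 0.0115), a call lost without PIC+TBHQ replicate 3 (log2FC 0.14, FDR 0.0694) and with scaling by total count (log2FC 0.079, FDR 0.234, range 0.00467 to 0.234). PIC against LPS was not called (log2FC 0.10, 95% interval 0.0038 to 0.20, FDR 0.12) unless LPS replicate 1 was left out (log2FC 0.16, FDR 0.0261, range 0.0261 to 0.705). The order was control, TBHQ, LPS, LPS+TBHQ, PIC and PIC+TBHQ, in which LPS overlapped TBHQ, LPS+TBHQ and, by its highest library, PIC. An antisense gene, *Junos*, shares 689 bases of its gene span with *Jun* and had 9 to 47 counts.

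*Fos* (ENSMUSG00000021250, chromosome 12, 85520664 to 85524047, plus strand), the gene of c-Fos, was lower after both stimuli. Control libraries held 20.8, 21.2 and 21.0 FPKM and TBHQ libraries 21.6, 21.2 and 20.6 FPKM, in overlapping ranges. LPS libraries held 13.6, 13.0 and 13.2 FPKM and PIC libraries 10.2, 11.6 and 14.6 FPKM. Pre-treated cells held 11.1, 11.9 and 13.2 FPKM with LPS and 9.83, 9.99 and 11.1 FPKM with PIC. All 12 stimulated libraries lay below the 6 others, with PIC replicate 3 the highest of the 12. *Fos* fell 1.59-fold with LPS (log2FC −0.67 ± 0.080, FDR 8.63e-09), 1.74-fold with PIC (log2FC −0.80 ± 0.080, FDR 9.93e-11), 1.75-fold with LPS+TBHQ (log2FC −0.81 ± 0.079, FDR 1.33e-10) and 2.04-fold with PIC+TBHQ (log2FC −1.03 ± 0.082, FDR 3.69e-13). These are levels at 12 h, and an earlier peak was not sampled.

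TBHQ alone gave no call for *Fos* (log2FC 0.0089, 95% interval −0.14 to 0.16, FDR 0.948), nor did TBHQ before LPS (log2FC −0.14, 95% interval −0.31 to 0.033, FDR 0.26). TBHQ before PIC gave a narrow decrease (log2FC −0.23 ± 0.088, FDR 0.0421), which rested on PIC replicate 3. Without that library the log2FC was −0.083 (FDR 0.516). The call also ended without PIC+TBHQ replicate 1 (log2FC −0.20, FDR 0.142) or replicate 2 (log2FC −0.21, FDR 0.108), with DESeq2 (FDR 0.0542), limma (FDR 0.0952 and 0.0933), scaling by total count (FDR 0.156) and a fit on those 2 groups alone (FDR 0.0881), in a range of 0.00206 to 0.516. PIC and LPS did not differ by a call for *Fos* (log2FC −0.13, 95% interval −0.31 to 0.042, FDR 0.277), but did without PIC replicate 3 (log2FC −0.29, FDR 0.00743) and with scaling by total count (log2FC −0.26, FDR 0.0143, range 0.00743 to 0.892). After TBHQ the difference also missed the threshold (log2FC −0.22, 95% interval −0.40 to −0.049, FDR 0.0636), and was called without LPS+TBHQ replicate 1 (log2FC −0.28, FDR 0.0343) or without PIC+TBHQ replicate 3 (log2FC −0.29, FDR 0.0389), with either other filter on low counts (FDR 0.0244 and 0.0447), with the replicate number as a block (FDR 0.0466), in a fit on those 2 groups alone (FDR 0.0351) and with scaling by total count (FDR 0.00698, range 0.00698 to 0.305). The order was PIC+TBHQ, LPS+TBHQ, PIC, LPS, control and TBHQ, with overlap between each pair of neighbours except LPS and control.

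*Fosl1* (ENSMUSG00000024912, chromosome 19, 5497575 to 5505974, plus strand) encodes Fra-1, a Fos protein without the transactivation domain of c-Fos. It had 96, 73 and 79 counts in control libraries and 252, 256 and 252 after TBHQ alone. LPS gave 254, 225 and 219 counts and PIC 263, 307 and 320. In pre-treated cells, LPS gave 330, 258 and 324 counts and PIC 350, 329 and 351. The 3 controls, at most 3.08 FPKM, lay far below the other 15 libraries, at 7.27 to 11.4 FPKM. *Fosl1* rose 2.94-fold with TBHQ (log2FC 1.55 ± 0.12, FDR 1.81e-12), 3.16-fold with LPS (log2FC 1.66 ± 0.12, FDR 6.18e-14), 3.87-fold with PIC (log2FC 1.95 ± 0.12, FDR 1.75e-16), 3.48-fold with LPS+TBHQ (log2FC 1.80 ± 0.12, FDR 4.62e-15) and 4.39-fold with PIC+TBHQ (log2FC 2.13 ± 0.12, FDR 1.21e-17).

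In stimulated cells, TBHQ made no called difference for *Fosl1*, neither with LPS (log2FC 0.14, 95% interval −0.07 to 0.34, FDR 0.379) nor with PIC (log2FC 0.18, 95% interval −0.014 to 0.38, FDR 0.157, called by the shift with total count at FDR 0.0397, range 0.0397 to 0.445, while the value relative to all genes stayed at 0.17). The upper bounds of both intervals lay far below the rise that TBHQ gave in resting cells, although that difference was not tested. Resting cells were sampled after 4 h of TBHQ and the pre-treated cells after a further 12 h of stimulus. A part of the time since TBHQ thus cannot be told apart from one of the stimulus. *Fosl1* was higher with PIC than with LPS (log2FC 0.29 ± 0.10, FDR 0.0295), which ended without LPS replicate 2 (FDR 0.0878), LPS replicate 3 (FDR 0.112) or PIC replicate 2 (FDR 0.161), with scaling by total count (FDR 0.214) and with limma at 0.1 added (FDR 0.0564, range 0.0176 to 0.214). After TBHQ it was also higher with PIC (log2FC 0.34 ± 0.097, FDR 0.00988), which ended without LPS+TBHQ replicate 2 (log2FC 0.25, FDR 0.11) and with scaling by total count (FDR 0.0503, range 0.00578 to 0.11). The order was control, TBHQ, LPS, LPS+TBHQ, PIC and PIC+TBHQ, with overlap between all neighbours after the control. The gene span of *Fosl1*, introns included, shares 2767 bases with that of *Ccdc85b* on the opposite strand, which had 173 to 390 counts. This is more than the 2033 bases given as the gene length of *Fosl1*, so how much counted sequence is shared is not known. Reads in any shared sequence cannot be told apart if strand was not used.

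*Fosl2* (ENSMUSG00000029135, chromosome 5, 32293145 to 32315186, plus strand), the gene of Fra-2, was steady by comparison, at 19.1 to 26.2 FPKM over the 18 libraries. Control libraries held 21.8, 23.5 and 23.3 FPKM, TBHQ libraries 19.8, 20.1 and 21.0 FPKM, LPS libraries 21.6, 22.2 and 23.4 FPKM and PIC libraries 26.2, 24.2 and 26.0 FPKM. It was 19.2, 19.1 and 19.1 FPKM in LPS+TBHQ and 21.6, 21.9 and 21.0 FPKM in PIC+TBHQ. Each TBHQ group lay below its counterpart without TBHQ in all 3 libraries. *Fosl2* fell with TBHQ alone (log2FC −0.17 ± 0.039, FDR 0.000776), within LPS (log2FC −0.23 ± 0.040, FDR 2.94e-05) and within PIC (log2FC −0.23 ± 0.039, FDR 1.36e-05). It was lower than the control with LPS+TBHQ (log2FC −0.27 ± 0.039, FDR 7.11e-07), with no call for LPS itself (log2FC −0.039, 95% interval −0.12 to 0.041, FDR 0.443).

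The small rise of *Fosl2* with PIC (log2FC 0.14 ± 0.039, FDR 0.00313) was one relative to other genes. With scaling by total count *Fosl2* was at log2FC −0.082 (FDR 0.0681) in PIC and was called lower in LPS (log2FC −0.13, FDR 0.00734), while relative to the median of all genes it was at 0.15 in PIC and −0.035 in LPS with either scaling. The ranges of FDR were 0.000355 to 0.0681 for PIC and 0.00734 to 0.871 for LPS. Its decrease with PIC+TBHQ against control (log2FC −0.10 ± 0.039, FDR 0.0363) was another narrow call, lost without control replicate 2 (FDR 0.1515), control replicate 3 (FDR 0.114), PIC+TBHQ replicate 1 (FDR 0.0667) or PIC+TBHQ replicate 3 (FDR 0.131), with DESeq2 (FDR 0.0515), with limma (FDR 0.0717 with either pseudocount) and with no filter on low counts (FDR 0.0666), in a range of 1.93e-06 to 0.1515. *Fosl2* was higher with PIC than with LPS without TBHQ (log2FC 0.17 ± 0.039, FDR 0.000775) and after it (log2FC 0.17 ± 0.040, FDR 0.00156). Neither was called with scaling by total count (FDR 0.387 and 0.127, ranges 5.08e-05 to 0.387 and 0.000534 to 0.127). The order was LPS+TBHQ, TBHQ, PIC+TBHQ, LPS, control and PIC, in which TBHQ overlapped PIC+TBHQ, and PIC+TBHQ, LPS and control overlapped in turn.

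*Fosb* (ENSMUSG00000003545, chromosome 7, 19036621 to 19043976, minus strand), another Fos gene induced early by growth factors, was close to the limit of detection. Its counts were 7, 4 and 5 in control, 13, 13 and 16 in TBHQ, 18, 17 and 14 in LPS and 23, 22 and 27 in PIC libraries. They were 8, 8 and 9 in LPS+TBHQ and 3, 14 and 13 in PIC+TBHQ libraries, so that PIC+TBHQ replicate 1 was at the level of the controls. Fitted values were higher with TBHQ (log2FC 1.31 ± 0.46, FDR 0.0291), LPS (log2FC 1.76 ± 0.45, FDR 0.00126) and PIC (log2FC 2.25 ± 0.42, FDR 2.05e-05), and lower for TBHQ within LPS (log2FC −1.21 ± 0.41, FDR 0.0287) and within PIC (log2FC −1.28 ± 0.38, FDR 0.00858).

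The *Fosb* call for TBHQ ended without control replicate 2 (FDR 0.117) or 3 (FDR 0.0933), without TBHQ replicate 2 (FDR 0.0543) or 3 (FDR 0.092), and with DESeq2 (FDR 0.0561), limma at 1 added (FDR 0.0885) and no filter on low counts (FDR 0.0533), in a range of 0.0285 to 0.117. The call within LPS ended without LPS replicate 1 or 2 or any of the 3 LPS+TBHQ libraries (FDR 0.0703 to 0.09475), with DESeq2 (FDR 0.0658) and with no filter (FDR 0.0564), in a range of 0.0262 to 0.09475. The call within PIC ended without PIC+TBHQ replicate 1 (log2FC −0.84, FDR 0.0996, range 0.00364 to 0.0996). Against the control, LPS+TBHQ (log2FC 0.55, 95% interval −0.47 to 1.58, FDR 0.402) and PIC+TBHQ (log2FC 0.97, 95% interval −0.014 to 1.96, FDR 0.0923) were not called, although the latter was without PIC+TBHQ replicate 1 (log2FC 1.41, FDR 0.012, range 0.012 to 0.4). PIC against LPS was not called either (log2FC 0.49, 95% interval −0.22 to 1.20, FDR 0.329), nor was PIC+TBHQ against LPS+TBHQ (log2FC 0.42, 95% interval −0.49 to 1.33, FDR 0.58). The order was control, LPS+TBHQ, PIC+TBHQ, TBHQ, LPS and PIC, where PIC+TBHQ overlapped control, LPS+TBHQ, TBHQ and, by replicate 2, LPS.

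Summed over the 7 Fos and Jun genes, FPKM was 172 ± 1.6 (SD, n = 3) in control, 176 ± 7.36 in TBHQ, 235 ± 14.6 in LPS and 306 ± 2.72 in PIC libraries. It was 193 ± 4.59 in LPS+TBHQ and 242 ± 8.06 in PIC+TBHQ. Most of the added FPKM in stimulated cells was *Junb*, whose share of the sum was 44.1% ± 0.683 in control, 54.9% ± 1.47 in LPS and 62.4% ± 0.358 in PIC. After TBHQ the *Junb* share was 48.7% ± 0.659 with LPS and 53.7% ± 0.586 with PIC. The *Fos* share went from 12.2% ± 0.152 in control to 5.65% ± 0.281 in LPS and 3.95% ± 0.692 in PIC, and that of *Fosl1* from 1.47% ± 0.276 in control to 4.21% ± 0.192 in TBHQ and 4.6% ± 0.255 in PIC+TBHQ. These shares describe transcripts per length, not protein or dimers, and were not tested.

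**Figure D2:**
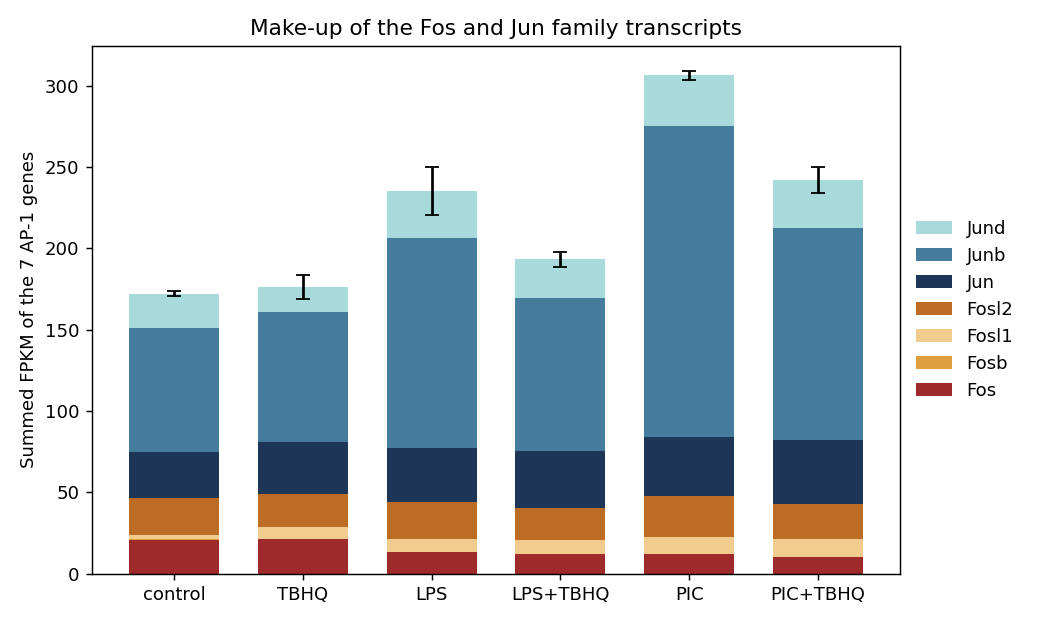
Mean FPKM of the 7 Fos and Jun genes stacked per condition (horizontal axis, n = 3), with the SD of the sum as error bars on a linear axis from 0. *Junb* forms the largest block in each condition, from 44.1% of the sum in control to 62.4% in PIC, and *Fosb* is too low to be seen.

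Read by comparison, TBHQ alone moved the 10 genes in both directions. *Fosl1*, *Fosb* and *Jun* were called higher and *Egr1*, *Egr2*, *Atf3*, *Jund* and *Fosl2* lower, which is 3 and 5 of 10 where 14.2% of the genes tested were called higher and 14.8% lower. The largest change was that of *Fosl1* (log2FC 1.55), short of the study's threshold against the control (FDR below 0.01 and |log2FC| above 2), which 0.19% of genes passed.

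With LPS, 7 of the 10 were called higher and *Fos* and *Egr2* lower, against 24% and 24.1% of all genes tested. The highest fitted value, that of *Fosb* (log2FC 1.76, 0.17 to 2.04 over the alternatives), did not reach the study's threshold, as 1.64% of genes did, except without control replicate 1 (2.04). With PIC, 8 were called higher and *Fos* lower, against 28.6% and 30.1% of genes, where 3.57% of genes passed the study's threshold. *Fosb* lay past it (log2FC 2.25, 0.26 to 2.53 over the alternatives), but had passed the filter through its counts in PIC and 2 other groups, so nothing is read from this, and the next, *Fosl1* (log2FC 1.95, 1.63 to 2.11 over the alternatives), was short of it except without control replicate 1 (2.11) or PIC replicate 3 (2.01). The lower ends of the ranges in this paragraph came from limma with 1 added to FPKM. At low FPKM the added 1 shrinks the log2FC, so these ends are not on the scale of the other values. The median log2FC over the 10 genes was 0.59 with LPS and 0.92 with PIC, while that over all genes tested lay between −0.015 and 0.0091 in the 10 comparisons. Both medians of the 10 genes include *Fosb*. Without *Fosb* the middle value was that of *Jund*, 0.42 with LPS and 0.53 with PIC. All comparisons with the control used the same 3 control libraries, and the direct comparisons share stimulated libraries with them, so their values stand side by side and are not independent.

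After pre-treatment, 4 of 10 were called higher (*Fosl1*, *Atf3*, *Junb* and *Jun*) and *Fos*, *Egr2* and *Fosl2* lower in LPS+TBHQ against control, where 21.2% and 22.5% of genes were. In that comparison 0.964% of genes passed the study's threshold, and *Fosl1*, at log2FC 1.80, came closest among the 10. In PIC+TBHQ against control, *Fosl1*, *Atf3*, *Junb*, *Jund* and *Jun* were called higher and *Fos* and *Fosl2* lower, against 26.4% and 26% of genes. *Fosl1* (log2FC 2.13, 1.79 to 2.29 over the alternatives) passed the study's threshold there, with 2.15% of all genes, but not with scaling by total count (1.99) or limma at 1 added (1.79). The last value is on another scale, as the added 1 shrinks the log2FC at low FPKM.

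The direct tests of TBHQ pre-treatment gave decreases for most of the genes called. Within LPS, *Egr1*, *Fosb*, *Atf3*, *Junb*, *Jund* and *Fosl2* were called, each of them lower, against 12.2% of all genes called lower and 11.7% higher. Within PIC, *Egr1*, *Fosb*, *Atf3*, *Junb*, *Fosl2* and *Fos* were called lower and *Jun* higher, against 15.5% and 15.8% of genes. With scaling by total count, 1401 of all genes were lower and 2061 higher within LPS, and 1436 lower and 3398 higher within PIC. The median over the 10 genes was −0.25 within LPS and −0.23 within PIC. Without *Fosb* the middle value was that of *Fosl2* within LPS (−0.23) and that of *Fos* within PIC (−0.23). The difference between both effects was called for *Egr1* and *Atf3*, 2 of 10, each lower, against 1.01% of genes lower and 0.825% higher (with scaling by total count, 74 genes lower and 235 higher, in place of 138 and 113). It was 239 lower and 115 higher without LPS replicate 2, and 86 and 74 without LPS+TBHQ replicate 2. DESeq2 gave 253 lower and 104 higher, and no filter on low counts 237 and 143.

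Between the stimuli, *Egr2*, *Junb*, *Atf3*, *Egr1*, *Fosl1* and *Fosl2* were called, each higher with PIC than with LPS, where 14.9% of genes were higher and 12.8% lower. After TBHQ, *Egr2*, *Junb*, *Fosl1*, *Jund*, *Atf3*, *Fosl2* and *Jun* were called, again each higher with PIC, where 11.9% of genes were higher and 8.39% lower. These splits of all genes turned with scaling by total count, to 985 higher and 4373 lower without TBHQ and 890 and 2582 after it. With that scaling *Junb*, *Atf3* and *Egr1* were still called higher without TBHQ and *Egr2*, *Junb*, *Jund* and *Atf3* after it, and *Fos* was called lower in both. PIC and LPS were given at 1 dose each, so these are differences between 2 exposures and not between equal doses.

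**Figure D3:**
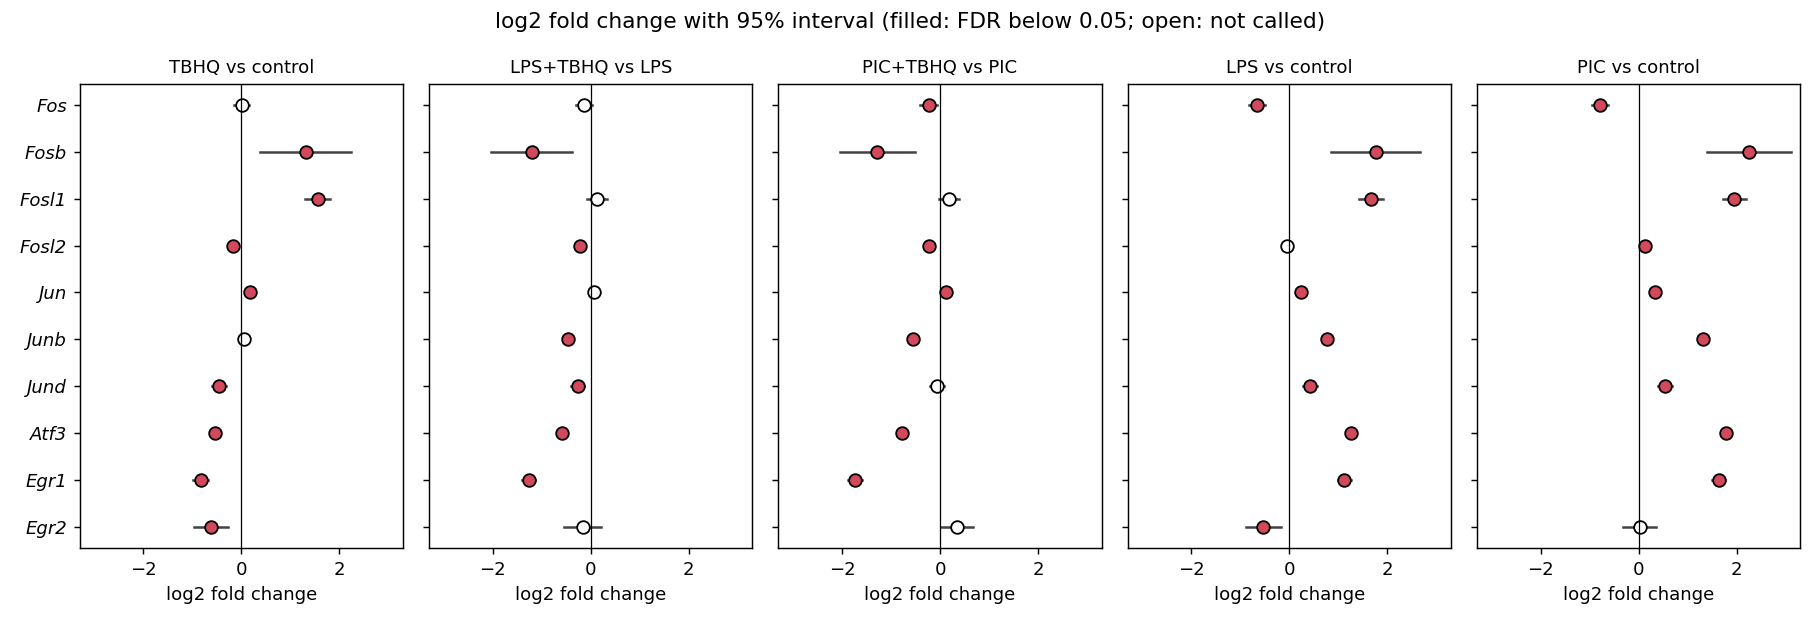
log2 fold change (horizontal axes, linear) of each gene with its 95% interval in 5 comparisons of 3 against 3 libraries, filled where FDR was below 0.05 and open where not. *Egr1* lies lowest in both direct tests of TBHQ (−1.26 within LPS and −1.74 within PIC) and at 1.12 and 1.63 for LPS and PIC against control, while *Fosl1* is at 1.55 for TBHQ alone and open in both direct tests.

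Several other genes of the same system were examined as lists, in which genes are named, and ranked, among those called with a mean of at least 50 counts. Counts of calls in a list stand against the shares of all genes tested that were called higher and lower, which were 14.2% and 14.8% with TBHQ alone, 24% and 24.1% with LPS, 28.6% and 30.1% with PIC, 11.7% and 12.2% for pre-treatment within LPS, 15.8% and 15.5% within PIC and 0.825% and 1.01% for the difference between both effects, whose split turned with total count as given above. The alternatives were not run for single genes of the lists, so how far their calls depend on a library or setting is not known. Some listed genes, such as *Maf*, *Mmp13*, *F3*, *Map2k6* and *Ier5l*, had few counts in some conditions. They passed the filter through conditions where they were high, and counts and medians of the lists include them as a description. Of 18 dimer partners of the AP-1 and ATF group, 16 were tested (*Batf* and *Batf3* had too few counts). With LPS 10 were called higher and 2 lower (median log2FC 0.42), and with PIC 12 and 3 (0.51), against 24% and 24.1%, and 28.6% and 30.1%, of all genes. The 16 include *Maf*, with 1 to 3 counts in control and TBHQ libraries, 29 to 40 in LPS and 5 to 15 in PIC. It passed the filter through the LPS libraries, so any call of it that uses them is a description. The small Maf gene *Maff* (log2FC 3.08, FDR 2.79e-23) and the Jun-binding repressor gene *Jdp2* (log2FC 1.54, FDR 1.19e-24) rose most with PIC among those with at least 50 counts. With TBHQ alone 5 were called higher and 2 lower (median 0.0044), among them *Mafg* (log2FC 0.60, FDR 3.60e-13), a partner of Nrf2, and *Ddit3* (log2FC −1.29, FDR 2.04e-21), the CHOP gene. TBHQ pre-treatment gave 2 higher and 7 lower within LPS (median −0.15) and the same numbers within PIC (−0.23). *Atf5* and *Mafg* were the ones higher in both, and of those with at least 50 counts *Batf2* was lowest in both (log2FC −0.83 and −0.79). For *Ddit3* the effect of TBHQ differed between the stimuli (log2FC 0.29, FDR 0.00702), 1 call among the 16.

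Of the Egr relatives and their NAB corepressors, *Egr3*, *Nab1* and *Nab2* were tested and *Egr4* was too low. *Egr3* (log2FC −1.41, FDR 7.53e-08) and *Nab2* (log2FC −0.50, FDR 7.39e-08) fell with LPS, and *Egr3* (log2FC −1.43, FDR 3.38e-08) and *Nab2* (log2FC −0.22, FDR 0.00419) with PIC, in which *Nab1* (log2FC 0.31, FDR 1.08e-07) rose. The medians were −0.50 and −0.22. *Egr3* also fell with TBHQ (log2FC −0.47, FDR 0.03), and *Nab1* rose (log2FC 0.12, FDR 0.0282). Of the 3 genes, *Nab2* was called for pre-treatment within PIC (log2FC −0.19, FDR 0.0239).

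All 20 genes of the MAP kinase and SRF input list were tested, and their medians stayed between −0.054 and 0.094 in the 10 comparisons. With LPS 2 were called higher and 5 lower, and with PIC 9 and 7, against 24% and 24.1%, and 28.6% and 30.1%, of all genes. The MEK1 gene *Map2k1* rose with both (log2FC 0.46 and 0.61), and the SRF coactivator gene *Mrtfa* fell with both (log2FC −0.29 and −0.42). TBHQ alone gave 6 higher, led by *Map2k3* (log2FC 0.58, FDR 1.87e-12), and 4 lower, among them *Map2k1* (log2FC −0.26, FDR 3.50e-06). Within LPS pre-treatment gave 4 higher and 3 lower, and within PIC 5 and 7, with the JNK1 gene *Mapk8* lower in both (log2FC −0.29 and −0.43). The difference between both effects was called for 1 of the 20, *Mrtfb* (−0.34, FDR 0.0432), near the threshold. These are transcript levels, and kinase activity was not measured.

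Most of the other immediate early genes examined rose with both stimuli. Of 21 listed, 20 were tested (*Nr4a3* was too low), and 14 were called higher and 3 lower with LPS (median log2FC 0.76), 15 and 3 with PIC (1.14), against 24% and 24.1%, and 28.6% and 30.1%, of all genes. The stress response gene *Ier3* (log2FC 3.46, FDR 2.56e-35) and the MAP kinase phosphatase gene *Dusp1* (log2FC 2.90, FDR 8.09e-30) rose most with PIC, as with LPS (log2FC 2.63 and 2.05). TBHQ alone gave 6 higher and 6 lower (median 0.012), against 14.2% and 14.8% of all genes. Among those with at least 50 counts *Plk3* (log2FC 0.80) and *Myc* (0.59) were highest and *Zfp36l1* (−0.76) and *Klf4* (−0.54) lowest. Pre-treatment gave 14 calls of 20 within each stimulus, each of them lower, with medians of −0.47 within LPS and −0.46 within PIC. *Gadd45b* (log2FC −0.92 and −0.96) and the mRNA decay factor gene *Zfp36* (−0.72 and −0.96) were lowest in both. For *Zfp36* and *Csrnp1*, 2 of the 20 against 1.01% of all genes called lower, the effect was larger within PIC, by calls near the threshold (difference −0.24, FDR 0.0379, and −0.36, FDR 0.0477).

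Of 10 genes known as AP-1 targets, 9 were tested (*Timp1* was too low). LPS gave 7 higher and 1 lower (median log2FC 0.98) and PIC 8 higher and 1 lower (1.31), against 24% and 24.1%, and 28.6% and 30.1%, of all genes. These include *Mmp13*, with 0 to 2 counts in control and 0 in TBHQ libraries, 16 to 27 in LPS and 96 to 111 in PIC. It passed the filter through stimulated groups, where it was high, so its calls there are a description. The protease genes *Mmp9* with LPS (log2FC 2.56) and *Mmp12* with PIC (3.97) and the urokinase receptor gene *Plaur* in both (2.15 and 3.08) rose most among those with at least 50 counts, and the cyclin D1 gene *Ccnd1* fell in both (−0.79 and −1.39). TBHQ alone gave 3 higher, led by *Plaur* (log2FC 1.14, FDR 6.91e-18), and 4 lower, among them *Vegfa* (−0.62) and *Mmp9* (−0.61) (median −0.55). Pre-treatment gave 2 higher and 6 lower within LPS (median −0.19), and 1 higher and 8 lower within PIC (−0.49). *Ccnd1* was higher in both (log2FC 0.44 and 0.65). For *Mmp12* TBHQ gave an increase within LPS (0.89) and a decrease within PIC (−0.50), and the difference was called (log2FC −1.39, FDR 3.05e-06), as it was for *Plaur* (−0.28, FDR 0.017), among 3 of the 9 called lower.

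All 6 genes listed as Egr targets were tested. LPS gave 4 higher and 1 lower (median 0.39) and PIC 5 higher and 1 lower (0.85), against 24% and 24.1%, and 28.6% and 30.1%, of all genes. With PIC *Tnf* (log2FC 3.14, FDR 1.50e-35) was highest and the growth factor gene *Pdgfa* (log2FC −0.76, FDR 0.000229) lowest among those with at least 50 counts. With TBHQ alone 3 were higher and 1 lower (median 0.25), and *Tnf* was highest (log2FC 0.68). Pre-treatment gave 1 higher and 4 lower within LPS (median −0.20) and 2 higher and 4 lower within PIC (−0.33). *Tgfb1* was higher in both (log2FC 0.24 and 0.18), and *Tnf* fell more within PIC (log2FC −0.83) than within LPS (−0.24, difference −0.58, FDR 1.76e-08). Of 3 genes that Atf3 is known to repress, *Il6* and *Ccl4* were tested and *Il12b* was too low. *Il6* (log2FC 5.30, FDR 7.37e-27) and *Ccl4* (log2FC 2.73, FDR 1.83e-30) rose with PIC, and both rose with LPS (log2FC 3.12 and 1.97), in the same libraries in which *Atf3* rose. Both were lower after pre-treatment, within LPS (log2FC −1.34 and −0.16) and within PIC (−1.85 and −0.46), with a difference called for *Ccl4* (−0.30, FDR 0.0238). With TBHQ alone *Il6* was lower (log2FC −1.43, FDR 0.00111). Whether any of these factors acted on any of these targets was not tested.

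Genes whose profile was most like each member were sought by Pearson correlation of log2 counts scaled to library size over the 18 libraries, among 10451 tested genes with a mean of at least 50 counts, leaving the members out. The 18 libraries fall into 6 conditions, so r mostly follows the condition means and is a description. For *Atf3* the closest were *Sat1* (0.997), *Cd52* (0.996) and *Pfkp* (0.994), for *Junb* *Vasp* (0.991), *Pstpip1* (0.987) and *Trim25* (0.984), and for *Jund* *App* (0.975), *Grina* (0.971) and *Oas3* (0.970). For *Egr1* they were *Clcn3* (0.970), *Aftph* (0.969) and *Cd47* (0.966), and for *Egr2*, with weaker likeness, *Dcakd* (0.841), *Rab7* (0.771) and *Tnfsf12* (0.770). *Fosl1* was closest to *Hmox1* (0.966), *Ets2* (0.966) and *Slc23a2* (0.964), of which *Hmox1* is a known target of Nrf2.

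*Fos* was closest to *Sdha* (0.968), *Impdh2* (0.966) and *Ssrp1* (0.964), *Fosl2* to *Dcun1d5* (0.911), *9530068E07Rik* (0.909) and *Sap30* (0.909) and *Jun* to *Dhx38* (0.947), *Fermt3* (0.945) and *Tgfb1* (0.942), the last of them also listed above as an Egr target. *Fosb*, below 50 counts, was left out. Between members, r was highest for *Jund* with *Atf3* (0.924) and *Junb* with *Atf3* (0.922), followed by *Fosl1* with *Jun* (0.886) and *Atf3* with *Egr1* (0.873). It was lowest for *Fos* with *Atf3* and for *Fos* with *Jun*, both at −0.809.

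Promoter windows of 300 bases, 250 before to 50 after the start, were taken from RefSeq (build GRCm38.p6, whose coordinates are not to be set beside those above) for 8 of the 10 genes, all but *Egr1* and *Fosl1*, and are shown for 4 genes that move apart in these data, *Atf3* and *Junb* (up with both stimuli), *Jun* (up by less) and *Fos* (down). They were searched on both strands for the TRE (TGANTCA), the full CRE (TGACGTCA), the Jun-type variant (TGACATCA), the Egr site (GCGNGGGCG), the CArG box of SRF and, added after the longer words had been searched, the CRE half-site (TGACG, also contained in the full CRE). Of 32544 distinct windows, 7.79% held a TRE, 1.8% a CRE, 3.37% the Jun-type site, 5.6% an Egr site, 1.64% a CArG box and 20.9% a CRE half-site. The windows of the 8 genes held neither a TRE nor a full CRE. *Jun* held the Jun-type site at −45 to −38 from the start, *Fosb* and *Fosl2* an Egr site each, and 4 of the 5 windows of *Egr2*, which overlap in part, a CArG box, at 2 distinct sites. Half-sites were found for 5 genes, at −129 and −66 in *Fos*, −106 in *Junb*, −7 in *Atf3*, −60 in *Fosb* and at 2 distinct sites shared by 3 windows of *Egr2*. In the lines below, capitals mark half-sites and the Jun-type site, and a match is only a match of letters.
Atf3 promoter (chr1:191183284-191183583, minus strand): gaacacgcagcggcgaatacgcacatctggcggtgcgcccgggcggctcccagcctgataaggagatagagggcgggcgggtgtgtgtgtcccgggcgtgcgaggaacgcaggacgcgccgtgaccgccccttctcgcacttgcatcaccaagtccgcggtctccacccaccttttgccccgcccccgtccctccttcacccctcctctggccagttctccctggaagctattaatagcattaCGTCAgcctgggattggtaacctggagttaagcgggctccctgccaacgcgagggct
Junb promoter (chr8:84978699-84978998, minus strand): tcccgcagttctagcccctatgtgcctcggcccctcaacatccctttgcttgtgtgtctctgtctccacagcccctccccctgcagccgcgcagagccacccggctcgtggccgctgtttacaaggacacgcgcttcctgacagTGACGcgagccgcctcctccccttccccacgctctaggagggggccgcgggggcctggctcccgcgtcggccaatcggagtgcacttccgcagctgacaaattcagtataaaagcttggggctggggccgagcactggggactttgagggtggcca
Jun promoter (chr4:95052173-95052472, minus strand): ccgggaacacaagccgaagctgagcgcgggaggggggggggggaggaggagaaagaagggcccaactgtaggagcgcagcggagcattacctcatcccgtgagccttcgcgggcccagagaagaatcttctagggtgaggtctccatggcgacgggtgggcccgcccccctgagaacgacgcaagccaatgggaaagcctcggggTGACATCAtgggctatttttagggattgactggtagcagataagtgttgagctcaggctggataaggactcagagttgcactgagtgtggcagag
Fos promoter (chr12:85473640-85473939, plus strand): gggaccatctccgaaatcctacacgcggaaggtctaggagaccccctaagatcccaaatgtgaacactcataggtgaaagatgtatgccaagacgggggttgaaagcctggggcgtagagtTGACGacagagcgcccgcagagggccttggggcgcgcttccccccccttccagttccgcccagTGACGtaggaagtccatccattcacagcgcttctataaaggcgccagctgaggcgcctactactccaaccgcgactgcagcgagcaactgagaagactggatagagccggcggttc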

How the data were processed

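Gene expression was measured by strand-specific poly(A) RNA-seq in 18 libraries. The counts are raw fragment counts per gene, made by the authors with HISAT2 2.0.5, StringTie 1.3.3b and featureCounts 1.5.0-p3 as named in the submitters' processing notes, and whether counting used strand is not stated. The FPKM values were deposited by the authors. They were FPKM recomputed from counts, lengths and total counts times a factor per library of 0.943 to 1.12, which followed the condition and was near the inverse of the TMM factor (product 1.00 to 1.02). Total counts were 14423390 to 18851626 per library, and 27701 of 56748 genes had a count.

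Differences were tested with edgeR 4.0.16 (R 4.3.3): filterByExpr, TMM scaling, one quasi-likelihood fit over the 6 conditions and 18 libraries (common dispersion 0.00192) and Benjamini-Hochberg adjustment over the 13691 genes tested. Comparisons were each treatment against control, TBHQ within each stimulus, the stimuli against each other with and without TBHQ, and the difference between the TBHQ effects within PIC and within LPS. Intervals are 95% intervals of the fit. Plots came from matplotlib 3.10.9 and tables from pandas 2.3.3 and numpy 2.4.6 under Python 3.11.15. The procedure was tested on simulated data.

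Alternatives were total library size or RLE scaling, no filter or a mean of 50 counts, DESeq2 1.42.0, limma 3.58.1 on log2 FPKM with 1 or 0.1 added, a fit on the compared groups alone, the replicate number as a block, the study's threshold, and leaving out each library in turn. All 10 members are named. Of each list, in a comparison described, at most the 2 highest and 2 lowest called genes with a mean of at least 50 counts are named, and for each member with a mean of at least 50 counts the 3 genes of most similar profile. The named cell markers are general knowledge. The members and lists were chosen with earlier results of these data known. Some genes that the rule allows are left out for length, and a few are not reported here. The alternatives were run for the 10 members and for counts over all genes, not for single genes of the lists.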

Additional observations from a re-analysis of the deposited data

Results flagged for a closer look

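The effect of TBHQ on *Egr1* differed between the stimuli by the test of that difference: TBHQ before PIC minus TBHQ before LPS was −0.472 on the log2 scale (FDR 0.00288), from changes of −1.74 and −1.26. The effect on *Atf3* differed the same way, by −0.208 on the log2 scale (FDR 0.0423), from changes of −0.79 and −0.58. This call ended in 11 of the 21 alternatives run at the same threshold (FDR 0.002525 to 0.117). Total count, a shift shared with all genes, was among the 11.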

How the results depend on the processing

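With the study's threshold (FDR below 0.01 and |log2FC| above 2), edgeR called 0 members in TBHQ, LPS and LPS+TBHQ against control, 1 in PIC and 1 in PIC+TBHQ against control, and 0 in each of the other 5 comparisons, where a log2FC above 2 was not reached. Leaving out 1 library gave 4 to 6 members called in PIC+TBHQ against PIC, in place of 7, and 1 to 2 in the difference between the TBHQ effects, in place of 2. The latter count was 1 with total library size and 1 with limma at either pseudocount. *Fosl2* in PIC against control went from 0.14 to −0.08162 (FDR 0.0681) with total library size, which shifts the median of all genes to −0.23 there.

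Of 1644 gene values recomputed, 1464 kept direction and side of the threshold, 138 lost the call (66 of them at the study's threshold), 21 gained one and 21 changed sign. Of these, *Fosl2* in PIC was the 1 called value. The other sign changes were of values not called with or without the change. With total library size they were *Egr2* in PIC against control (−0.20), *Jund* in PIC+TBHQ against PIC (0.0076), *Jun* (−0.026) and *Jund* (−0.016) in PIC against LPS, *Egr1* in PIC+TBHQ against LPS+TBHQ (−0.050) and *Fosl2* in the difference between TBHQ effects (0.038). With 1 library left out they are given with the value furthest to the other side. *Fos* in TBHQ against control was −0.0095 without TBHQ replicate 1 and 0.029 without replicate 3. *Egr2* in PIC against control was −0.021 without control replicate 3, −0.038 without PIC replicate 2 and 0.13 without PIC replicate 1, and in LPS+TBHQ against LPS it was 0.050 without LPS+TBHQ replicate 2 and −0.30 without replicate 3. *Egr1* in PIC+TBHQ against LPS+TBHQ was −0.0020 and −0.0039 without PIC+TBHQ replicates 1 and 3, and 0.098 without replicate 2. In the difference between TBHQ effects *Fos* was 0.055 without PIC replicate 3 and −0.21 without PIC replicate 1, *Fosb* was 0.016 without LPS replicate 3, 0.36 without PIC+TBHQ replicate 1 and −0.44 without PIC+TBHQ replicate 2, *Fosl1* was −0.027, −0.013 and −0.045 without LPS replicate 1, PIC replicate 3 and LPS+TBHQ replicate 2, and 0.12 without LPS+TBHQ replicate 1, and *Fosl2* was 0.016 and 0.0081 without LPS replicate 1 and PIC+TBHQ replicate 3, and −0.054 without PIC replicate 2. Of 60 mean levels, 57 moved by less than 1 SD with TMM-scaled FPKM, and *Fosl2* in LPS+TBHQ and *Junb* and *Jund* in PIC moved by more. The authors' FPKM already carried a factor near the inverse of the TMM factor (product 1.00 to 1.02), so only small moves were possible. *Fosb* was not tested with the filter at a mean of 50 counts. Among all genes, total library size changed the split of calls (3917 higher and 4120 lower became 2379 and 6635 in PIC, 2035 and 1752 became 985 and 4373 in PIC against LPS, 1623 and 1149 became 890 and 2582 after TBHQ, and 113 and 138 became 235 and 74 in the difference between TBHQ effects), and the 251 calls in the difference between TBHQ effects became 380 with no filter, 160 without LPS+TBHQ replicate 2 and 147 with limma at 0.1 added. With total library size, 3283 higher and 3306 lower became 2454 and 4558 in LPS against control. In LPS+TBHQ 2896 and 3087 became 2281 and 4034, and in PIC+TBHQ 3615 and 3563 became 2364 and 5515. For pre-treatment, 1601 and 1673 became 2061 and 1401 within LPS, and 2167 and 2118 became 3398 and 1436 within PIC. Relative to the median of all genes, the 100 member values moved by at most 0.0029 with total library size. That was fixed in advance, as a change of scaling moves every gene by nearly the same amount. The cause of the shift was not tested.

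Replicate number as a block changed 1 of 100 member calls (*Fos* in PIC+TBHQ against LPS+TBHQ gained one). Libraries of the same number correlated at −0.0444 to 0.0646 over 45 pairs, and 7 of 18 were closest to their own number. Depth limits *Fosb*, at 3 to 27 counts.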

Other observations

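The macrophage markers themselves moved with the stimuli. *Adgre1*, the gene of F4/80, rose with LPS (log2FC 1.45) and PIC (1.86), and *Itgam*, the gene of CD11b, rose with both (0.96 and 1.25), while *Csf1r*, the gene of the receptor for macrophage colony stimulating factor, fell (−0.75 and −0.85). TBHQ before the stimulus lowered *Adgre1* (−0.34 within LPS and −0.53 within PIC) and raised *Csf1r* (0.39 and 0.45). With TBHQ alone, *Adgre1* (−0.53) and *Itgam* (−0.41) were lower than in control and *Csf1r* (0.18) higher. Of the 8 markers, TBHQ alone gave 1 higher and 3 lower, LPS 4 and 3, and PIC 5 and 2, where 14.2% and 14.8%, 24% and 24.1%, and 28.6% and 30.1% of all genes were called higher and lower. The difference between the TBHQ effects within PIC and LPS was called for 1 of the 8, *Ptprc* (−0.21, FDR 0.0296).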
